A study of Mus musculus with 16 samples.

Results

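The genes examined were 8 chromatin regulators, the DNA methyltransferases Dnmt1, Dnmt3a and Dnmt3b, the methylcytosine dioxygenases Tet1, Tet2 and Tet3, and the Polycomb-linked genes Ezh2 and Asxl1. They were taken by gene symbol from a table of read counts for 14829 genes, in which all 8 were present. The RNA came from hematopoietic stem cells of old and young Mus musculus, the marrow cells from which all blood lineages descend. Marrow was incubated for 1 h at 37 °C with vehicle or with dmPGE2 (a stabilized dimethyl derivative of the lipid mediator prostaglandin E2), and the stem cells were then sorted. The groups were old dmPGE2, old vehicle, young dmPGE2 and young vehicle, with 4 libraries in each. The cells of each of the 8 mice had been divided, so that every mouse gave a dmPGE2 library and a vehicle library. No genetic change was labelled in any group, and the sources used here do not give strain, age in months, dose or sorting markers. The sample descriptions carry 2 consecutive dates, called date 2 and date 1 below, each with 2 old and 2 young mice. Which laboratory step these dates refer to is not stated. Mice 485 and 486 (old) and 483 and 484 (young) belong to date 2, and mice 479 and 480 (old) and 477 and 478 (young) to date 1. Values of single libraries are listed by rising mouse number within each group. The questions addressed were which of these genes differ between old and young stem cells, and which respond to dmPGE2.

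DNA methylation silences genes by adding a methyl group to cytosine, mostly where a guanine follows it. Dnmt3a and Dnmt3b place new marks, Dnmt1 copies existing marks onto the new strand after DNA replication, and the Tet enzymes oxidize the mark on the way to its removal. Ezh2 is the catalytic subunit of Polycomb repressive complex 2, which methylates histone H3 at silenced genes, and Asxl1 works with the deubiquitinase Bap1 on the mark left by Polycomb repressive complex 1. In people, clonal hematopoiesis is the outgrowth with age of blood cells from 1 mutated stem cell, and DNMT3A, TET2 and ASXL1 are the genes most often mutated in it. Expression of the normal gene is what was measured here, not mutation.

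Dnmt1, Dnmt3b and Ezh2 are the members that were called lower in old than in young stem cells (adjusted p under 0.05) in both the dmPGE2 and the vehicle libraries, so the DNA just before their transcription starts is shown. The sequences are from RefSeq on GRCm38.p6, the assembly called mm10 in the submitters' processing notes, and capitals mark each CG pair, the site that DNA methyltransferases act on. Windows reached 250 bases before a start, and stretches covered by an annotated exon in GENCODE vM21 were left out. Of the 3 starts of Dnmt1 the middle one, at 20952979, was taken. It is not the start of the gene in the table of read counts, which is 20959888. The 250-base windows before the starts at 20959888 and 20952623 held 2 and 26 CG pairs. Dnmt1 is shown at chr9:20952980-20953229, minus strand, Dnmt3b at chr2:153649199-153649448, plus strand, and Ezh2 at chr6:47595059-47595183, minus strand.
Dnmt1: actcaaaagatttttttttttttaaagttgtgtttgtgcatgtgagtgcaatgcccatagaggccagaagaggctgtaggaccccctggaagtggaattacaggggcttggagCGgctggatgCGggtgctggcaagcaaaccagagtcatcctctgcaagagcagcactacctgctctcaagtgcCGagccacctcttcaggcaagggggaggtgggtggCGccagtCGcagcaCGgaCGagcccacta
Dnmt3b: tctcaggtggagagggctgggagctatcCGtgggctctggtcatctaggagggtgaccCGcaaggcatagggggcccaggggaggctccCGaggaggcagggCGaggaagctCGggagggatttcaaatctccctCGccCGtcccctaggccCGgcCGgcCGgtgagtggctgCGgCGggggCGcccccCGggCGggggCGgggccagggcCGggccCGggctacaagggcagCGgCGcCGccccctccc
Ezh2: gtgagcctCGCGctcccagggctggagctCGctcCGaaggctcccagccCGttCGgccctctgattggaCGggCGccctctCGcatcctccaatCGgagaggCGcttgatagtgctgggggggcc
The Dnmt1 stretch held 7 CG pairs in 250 bases, the Dnmt3b stretch 21 in 250 bases and the Ezh2 stretch 11 in 125 bases. Over all 32851 promoters of the RefSeq table, the median number of CG pairs in 250 bases was 6. All 8 members were in that table, with 12 windows between them, and their counts of CG pairs ran from 2 at another Dnmt1 start to 51 at Tet2. A RefSeq start matched the start of the gene in the table of read counts for 6 members, and not for Tet1 and Asxl1. The E2F-type words TTTGGCGC, TTTCCCGC, TTTCGCGC and TTTGCCGC were searched on both strands, since E2F factors drive many genes of DNA replication. Such a word stood in 611 of the 32851 promoters (1.86%). Of the 12 windows of the members, 1 held a match, at chr9:20952835-20952842 before the Dnmt1 start at 20952623, and it lay inside an annotated exon of another Dnmt1 transcript. In the other windows these letters were not found, which says nothing of E2F binding elsewhere.

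The genes lie on 6 chromosomes in mm10. Dnmt1 spans chr9:20907206-20959888 on the minus strand, Dnmt3a chr12:3806980-3914443 and Dnmt3b chr2:153649449-153687730 on the plus strand. Tet1 spans chr10:62804570-62880014, Tet2 chr3:133463677-133544390 and Tet3 chr6:83362374-83441678, all on the minus strand. Asxl1 spans chr2:153346139-153404007 on the plus strand and Ezh2 chr6:47530274-47595030 on the minus strand. Counts were of reads in exons, and the exonic length ran from 2667 bases for Ezh2 to 14082 bases for Tet1. The exons of Ezh2 shared 92 bases (3.45% of their length) with the noncoding gene Gm26625 on the opposite strand, and those of the other 7 members shared none. The library kit does not mark strand, so reads in these 92 bases cannot be assigned to either gene.

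Library totals ran from 12960704 to 19226963 counts, and each total of date 2 was below each total of date 1. Counts of the members ran from 302 for Tet2 to 9347 for Dnmt1 in a library, so all of them were far above the level of 0.156 to 0.231 CPM (counts per 1000000 counts of the library) that 3 counts stand for. That limit reflects counting error alone, because without molecular identifiers some reads may be copies of 1 molecule. The stem cell genes Kit and Gata2 averaged 1462 and 665 CPM, and all 21 genes of a list of stem cell markers were in the table. That list also holds Flt3, a receptor of multipotent progenitors, and Cd34 and Cd48. In vehicle libraries 14 of the 21 were higher and 3 lower in old than in young mice, and 1 was higher and 13 lower on date 2 than on date 1. Cd34 and Flt3 were among the 3 lower in old mice, and Cd48 was the 1 higher on date 2. RNA of other blood cells was also present, and several lists of its markers moved with date. In vehicle libraries, 17 of 19 markers of myeloid progenitors and neutrophils were higher on date 2 than on date 1, and their sum was 2486 to 5013 CPM on date 2, against 228.6 to 459 CPM on date 1. Of 14 T and NK cell markers 12 were higher on date 2. Erythroid markers summed to 2186 to 4206 CPM on date 2 and to 1665 to 2093 CPM on date 1. On date 2 both sums were lower in old than in young libraries, with 2486 to 2619 CPM in old and 3677 to 5013 CPM in young libraries for the myeloid list. On date 1 the myeloid sum was 406 to 459 CPM in old and 228.6 to 269 CPM in young libraries. The genes of the list had no common direction there. In vehicle libraries of date 1, 9 were higher and 10 lower in old mice, called or not, with a median log2 difference of -0.36. Prtn3, at 107 CPM or more in every library, was higher in old mice (log2 1.06), while Mpo was lower (-1.80). Mpo, the most abundant gene of the myeloid list on average, ranged from 1.91 to 2468 CPM over the libraries, and the B cell gene Cd79a from 0 to 22.8 CPM. In the vehicle comparison of age, 6 of 19 myeloid markers and 4 of 13 erythroid markers were lower in old mice, 2 myeloid markers were higher, and 4 of 14 megakaryocyte and platelet markers were higher; of the last list 1 was higher and 1 lower on date 2. Megakaryocyte and platelet markers summed to 2778 to 3589 CPM in old and to 1380 to 2009 CPM in young libraries. The part of these cells in the age differences below was not tested. In sorted bulk cells, fewer cells of a type and less RNA per cell cannot be told apart.

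Levels of different members were compared as CPM per kb of exonic length. Dnmt1 had the highest level in every library, with a mean of 60.3 CPM per kb and a range of 43.3 to 77.9 over the 16 libraries. Ezh2 followed with a mean of 23.9 CPM per kb (12.99 to 35.9), then Dnmt3b with 21.4 (13.6 to 30.6), Asxl1 with 15.9 (13.3 to 19.3) and Dnmt3a with 12.7 (9.48 to 16.5). The Tet enzymes were lowest, with a mean of 5.11 CPM per kb for Tet3 (3.46 to 6.06), 3.59 for Tet1 (2.64 to 5.06) and 3.03 for Tet2 (1.77 to 5.33). No Tet enzyme reached in any library the lowest level of the other 5 members. Among neighbours in this order below Dnmt1, the ranges of Ezh2 and Dnmt3b overlapped, as did those of Dnmt3b and Asxl1, of Asxl1 and Dnmt3a, of Tet3 and Tet1, and of Tet1 and Tet2.

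**Figure D1:**
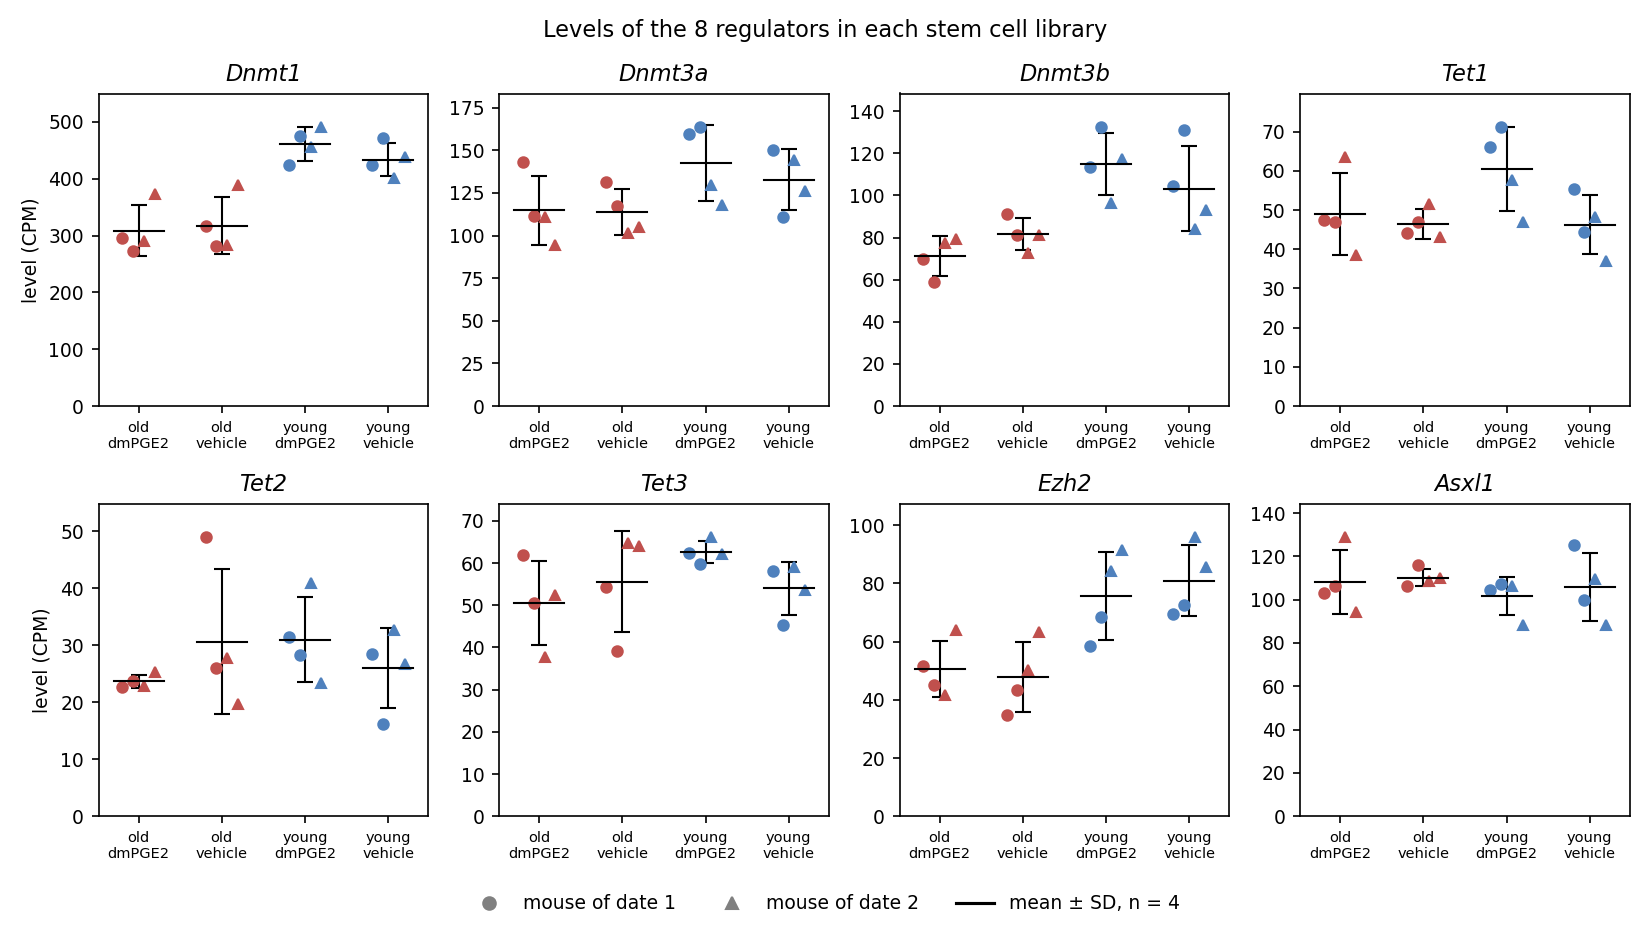
Level of each regulator in CPM (y axis, from 0) in the 4 libraries of each group (x axis), with circles for mice of date 1, triangles for mice of date 2 and bars for the mean ± SD. Dnmt1 lies between 273 and 389 CPM in old libraries and between 401 and 491 CPM in young libraries, while the Asxl1 groups overlap.

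Old against young stem cells was tested in the vehicle libraries first, with edgeR's quasi-likelihood test, a term for date and Benjamini-Hochberg adjustment over all genes. Of the 8 members, 3 were lower in old mice at an adjusted p under 0.05 and 0 were higher. Of all 13369 genes tested, 17.3% were called, 8.86% lower and 8.47% higher. The 3 called members were Ezh2, Dnmt1 and Dnmt3b, the largest fall being that of Ezh2. The number of all genes called, 2318, was 1448 without mouse 480 and 1555 to 2129 without each of the others. The median log2 difference of the 8 members was -0.13, and that of all genes tested was -0.0012.

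Ezh2 RNA was measured at 34.7, 43.3, 50.4 and 63.2 CPM in old vehicle libraries, against 69.6, 72.5, 95.9 and 85.6 CPM in young vehicle libraries. Every old library was below every young one, as was the case for 6.84% of all genes tested. Ezh2 was 1.73-fold lower in old mice (log2 -0.79 ± 0.11 SE, adjusted p = 0.00103, edgeR). The call held without any 1 of the 8 mice and within each date. The log2 difference was -0.70 ± 0.16 on date 2 (adjusted p = 0.0303) and -0.88 ± 0.16 on date 1 (adjusted p = 0.0134). Within a date 2 old libraries stand against 2 young ones, and the spread is pooled with the other date. Leaving out a mouse of that date leaves 1 library in an arm, which is assumed to vary like the other groups, so a call lost or gained there says little of the gene. With that limit, the call on date 2 was lost without mouse 483, 484 or 485 (adjusted p = 0.0689 to 0.169), and that on date 1 without mouse 478 or 479 (0.102 and 0.105). Of all genes tested, 7.91% passed the test within date 2 (3.24% lower) and 6.47% within date 1 (2.95% lower). These shares stand for 1057 and 865 genes. The count on date 2 was 465, 297 and 597 without mouse 484, 485 and 486, and the count on date 1 was 115, 384 and 190 without mouse 478, 479 and 480.

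Dnmt1, the maintenance methyltransferase, was measured at 317, 282, 283 and 389 CPM in old vehicle libraries, against 423, 471, 401 and 439 CPM in young vehicle libraries. The groups did not overlap. The gene was 1.39-fold lower in old mice (log2 -0.47 ± 0.10 SE, adjusted p = 0.00978, edgeR). The difference was called on date 1 (log2 -0.60 ± 0.14, adjusted p = 0.0358) but not on date 2 (log2 -0.35 ± 0.14, adjusted p = 0.169). The date 1 call was lost without mouse 477, 478, 479 or 480 (adjusted p = 0.0580 to 0.256), each time with 1 library left in an arm and the spread taken from the other groups. The old library with 389 CPM came from mouse 486 of date 2. Without that mouse the date 2 difference was -0.60 (adjusted p = 0.0338), with the lone old library of date 2 assumed to vary like the other groups. The vehicle and dmPGE2 libraries of mouse 486 also had the highest summed level of cell cycle markers among old libraries, 4123 and 4092 CPM, and the part of this in its Dnmt1 level was not tested.

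Dnmt3b, a de novo methyltransferase, was measured at 91.2, 81.3, 72.7 and 81.3 CPM in old vehicle libraries, against 104, 131, 84.3 and 93.3 CPM in young vehicle libraries. The groups overlapped across dates, but within each date both old libraries were below both young ones. With 2 libraries against 2 this held on date 2 for 24.5% and on date 1 for 26.4% of all genes tested, counting the same direction alone. The fall was 1.27-fold (log2 -0.35 ± 0.10 SE, adjusted p = 0.0424, edgeR). It was called within neither date (adjusted p = 0.380 on date 2 and 0.0947 on date 1). The call was also lost without mouse 477, 478, 479, 480, 484 or 485, with adjusted p between 0.0525 and 0.143, and without the term for date, with adjusted p = 0.149.

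The other 5 members did not pass the test in vehicle libraries. Dnmt3a, the de novo enzyme most often mutated in human clonal hematopoiesis, had 131, 117, 102 and 105 CPM in old libraries, against 150.1, 111, 144 and 126 CPM in young libraries. Its groups overlapped, and its log2 difference was -0.25 ± 0.11 (adjusted p = 0.160). Without the young mouse at 111 CPM, mouse 478, it was -0.36 with an adjusted p of 0.0261. That was the 1 call in 16 alternatives, over which the log2 difference ran from -0.42 to -0.09. Tet2, the Tet enzyme most often mutated in human clonal hematopoiesis, had 48.9, 26.1, 27.7 and 19.7 CPM in old libraries, against 28.5, 16.3, 32.7 and 26.8 CPM in young libraries. The old library at 48.9 CPM stood above all others, and the log2 difference of 0.19 ± 0.29 became -0.13 without its mouse, 479. Asxl1 had 106, 116, 109 and 110.2 CPM in old libraries, against 125, 99.7, 109.7 and 88.5 CPM in young libraries, with a log2 difference of 0.04 ± 0.10. For Asxl1 the 95% interval ran from -0.19 to 0.27, so a change of the size seen for Ezh2 lies outside it. Tet1 and Tet3 had log2 differences of -0.01 ± 0.13 and 0.00 ± 0.14, with 95% intervals of -0.31 to 0.28 and -0.30 to 0.30.

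The dmPGE2 libraries gave the same comparison in the other portion of the same mice, so they are not an independent set of animals. Of the 8 members, 4 were lower in old mice and 0 higher, against 14.3% of the 13279 genes tested called in either direction, 6.41% of the genes tested lower and 7.85% higher. The number of all genes called, 1894, was 1104, 1162 and 1221 without mouse 478, 480 and 484, and 1269 to 2167 without each of the others. The called members were Dnmt3b, Dnmt1, Ezh2 and Dnmt3a. The median log2 difference was -0.36 for the 8 members and -0.0062 for all genes tested.

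Dnmt3b was measured at 69.7, 58.7, 77.6 and 79.4 CPM in old dmPGE2 libraries, against 113, 133, 96.6 and 117 CPM in young dmPGE2 libraries. No old library reached the lowest young one, as was the case in the same direction for 5.95% of genes. The fall was 1.63-fold (log2 -0.70 ± 0.12 SE, adjusted p = 0.00400, edgeR) and was called without any 1 of the 8 mice. It was called on date 1 (log2 -0.95, adjusted p = 0.00583) and not on date 2 (log2 -0.45, adjusted p = 0.0864).

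Dnmt1 was measured at 296, 273, 291 and 374 CPM in old dmPGE2 libraries, against 423, 475, 455 and 491 CPM in young dmPGE2 libraries. The groups did not overlap, and the fall was 1.51-fold (log2 -0.59 ± 0.09 SE, adjusted p = 0.00128, edgeR). It was called on both dates, with adjusted p = 0.0329 on date 2 and 0.0126 on date 1.

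Ezh2 was measured at 51.8, 44.99, 41.8 and 63.9 CPM in old dmPGE2 libraries, against 58.5, 68.4, 84.1 and 91.6 CPM in young dmPGE2 libraries. The highest old library exceeded the lowest young one. The fall was 1.49-fold (log2 -0.57 ± 0.14 SE, adjusted p = 0.0217, edgeR). It was called on date 2 (log2 -0.74, adjusted p = 0.0498) and not on date 1 (log2 -0.41, adjusted p = 0.304). The call was lost without mouse 478, 480 or 484, with adjusted p = 0.0720 to 0.0740, and without the term for date, with adjusted p = 0.0710.

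Dnmt3a was measured at 143, 111, 111 and 94.2 CPM in old dmPGE2 libraries, against 159, 164, 129.7 and 118 CPM in young dmPGE2 libraries. The groups overlapped through the old library at 143 CPM. The log2 difference was -0.32 ± 0.09 (SE, adjusted p = 0.0446, edgeR). It was not called on date 2 (adjusted p = 0.255) or on date 1 (adjusted p = 0.175). The call was lost without mouse 477, 478, 480, 483, 484 or 486, and without the term for date (adjusted p = 0.251). The lowest and highest adjusted p with 1 mouse left out were 0.0358 and 0.147.

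The Tet enzymes did not pass the test in the dmPGE2 libraries, although all 3 had lower means in old mice. Tet2 had 22.8, 23.8, 22.9 and 25.3 CPM in old libraries, against 31.5, 28.2, 40.96 and 23.3 CPM in young libraries (log2 -0.40 ± 0.17, adjusted p = 0.157). The 4 old libraries lay close together and overlapped the young group only through mouse 484. Without that mouse the adjusted p was 0.0489. That was the 1 call in 16 alternatives, over which the log2 difference ran from -0.53 to -0.21. Tet3 had 61.9, 50.5, 37.7 and 52.4 CPM in old libraries, against 62.3, 59.7, 66.1 and 62.1 CPM in young libraries (log2 -0.32 ± 0.13, adjusted p = 0.141). Tet1 had a log2 difference of -0.30 ± 0.17 (adjusted p = 0.274), which without mouse 485 was -0.50 with an adjusted p of 0.0150. For Tet1 too this was the 1 call in 16 alternatives, over which the log2 difference ran from -0.56 to -0.04. Asxl1 had 103, 106, 129 and 94.1 CPM in old libraries, against 104, 107, 106 and 88.5 CPM in young libraries, and a log2 difference of 0.08 ± 0.11.

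**Figure D2:**
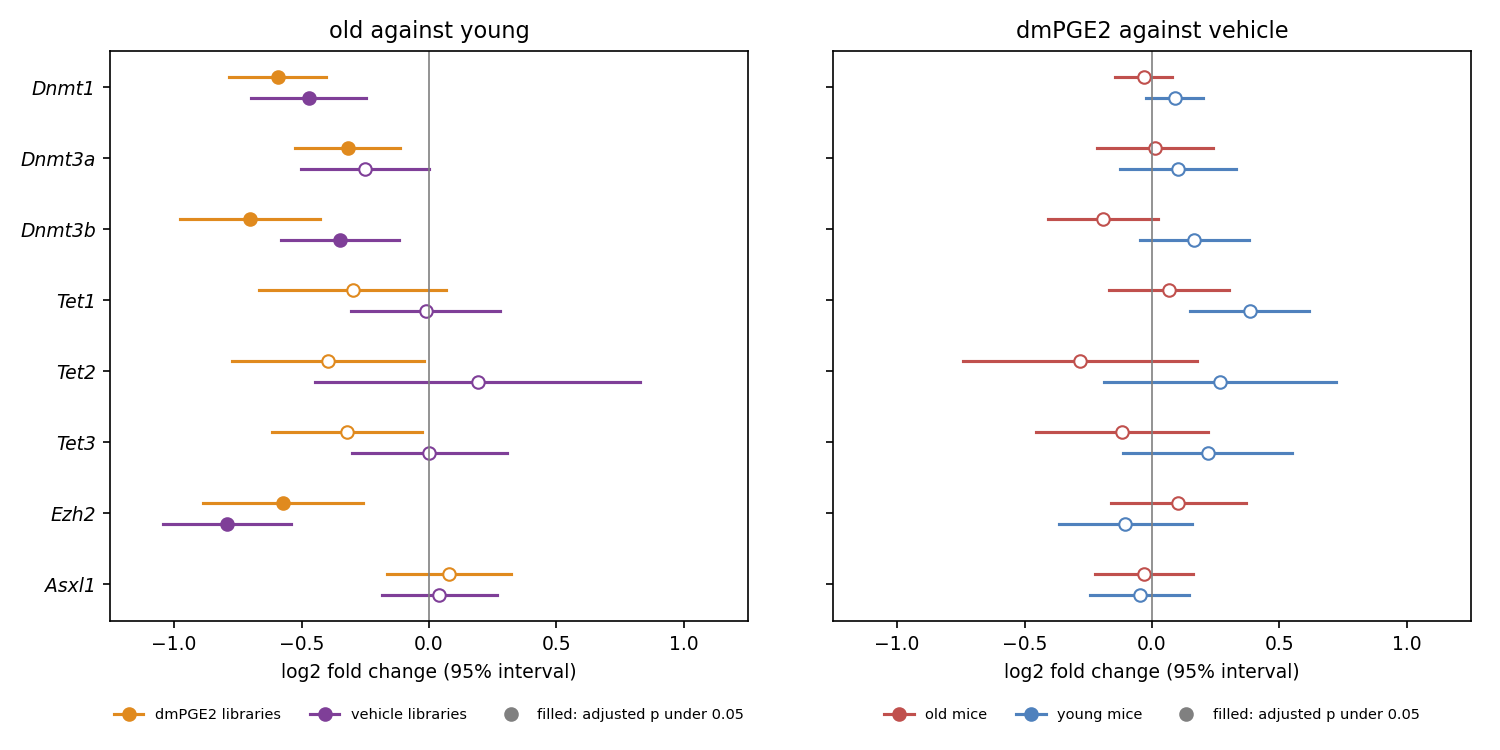
Log2 fold change (x axis) of each regulator (y axis) with its 95% interval, for old against young libraries on the left and for dmPGE2 against vehicle on the right; filled points have an adjusted p under 0.05. The filled points are those of Dnmt1, Dnmt3b and Ezh2 in both treatments and of Dnmt3a in dmPGE2 libraries, all below 0, and no point is filled on the right.

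Whether the age difference itself differed with date was tested in the vehicle libraries. It was called for 0 of 8 members and for 0% of all genes by edgeR, where 788 genes had an unadjusted p under 0.05, while DESeq2 called 45 genes and limma-voom 1. The widest estimate among members was that of Tet2, at -1.08 ± 0.49 (adjusted p = 0.848). The difference between dates, at equal age, was called for 1 of 8 members, against 11% of all genes tested (8% higher). The 1472 genes behind this share were 902 without mouse 477 and 1003 to 1346 without each of the others. Ezh2 was 1.36-fold higher on date 2 than on date 1 in vehicle libraries (log2 0.44 ± 0.11, adjusted p = 0.0303, edgeR). This call was lost without mouse 477, 478, 479, 480, 483 or 486, with adjusted p = 0.0515 to 0.0925. Dnmt3b went the other way without passing the test, at -0.29 ± 0.10 (adjusted p = 0.108), and Dnmt1 was at 0.03 ± 0.10. In the same libraries 17 of 19 myeloid markers and 11 of 13 erythroid markers were higher on date 2, and their part in these values was not tested.

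Cell cycle genes moved with age in the same direction as Dnmt1 and Ezh2. All 30 of a list of 30 cell cycle markers were lower in old mice in vehicle libraries and in dmPGE2 libraries, with median log2 differences of -1.06 and -0.91. On date 2 their summed level was 3097 to 4123 CPM in old and 6072 to 6996 CPM in young libraries. On date 1 it was 2397 to 2809 CPM in old and 4726 to 5250 CPM in young libraries. Ezh2 ordered the same 4 classes alike, with means of 54.8 CPM in old and 89.3 CPM in young libraries on date 2, and of 43.7 CPM in old and 67.3 CPM in young libraries on date 1. Dnmt1 separated the ages but not the young libraries of the dates, with means of 334 CPM in old and 447 CPM in young libraries on date 2, and of 292 CPM in old and 448 CPM in young libraries on date 1. Dnmt3b averaged 97.9 CPM in young libraries of date 2 and 120.3 CPM in young libraries of date 1, the reverse of the order of the cell cycle markers. In old libraries its means were close, at 77.8 CPM on date 2 and 75.2 CPM on date 1, in the order of those markers. The part of cell division in the falls of Dnmt1, Ezh2 and Dnmt3b was not tested.

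**Figure D3:**
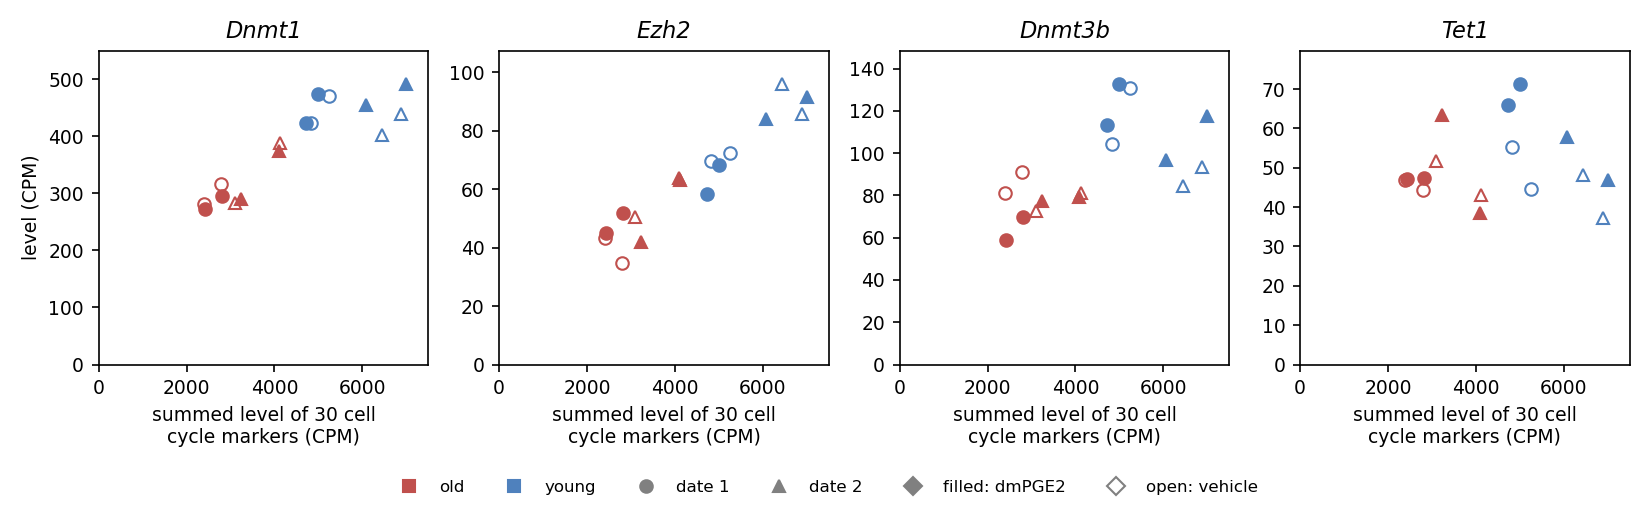
Level in CPM (y axis) of Dnmt1, Ezh2, Dnmt3b and Tet1 against the summed level of 30 cell cycle markers in CPM (x axis) in each of the 16 libraries; red is old, blue is young, circles are date 1, triangles date 2, filled dmPGE2 and open vehicle. Old libraries lie at 2397 to 4123 CPM on the x axis and young ones at 4726 to 6996 CPM, and for Dnmt1 and Ezh2 nearly all old points also lie below the young ones.

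The genes most like each member were found from the Pearson correlation of log2 CPM, with date means removed, over the 16 libraries and 11198 genes. The libraries share mice and ages, so the values are descriptions. Dnmt1 was most like Shmt1, an enzyme of one-carbon metabolism (r = 0.985), Flt3, a receptor of multipotent progenitors (0.975), and Rrm1, a subunit of ribonucleotide reductase (0.969). Ezh2 was most like Tipin, a replication fork protein (0.941), Cenph, a centromere protein (0.933), and Mcm6, a subunit of the replicative helicase (0.933). Dnmt3b was most like AI854703 (0.953), the translation factor subunit Eif3b (0.924) and the phosphatase Ppm1g (0.918). Dnmt3a was most like Top2b, a DNA topoisomerase (0.878), Chsy1 (0.853) and Fip1l1 (0.848). Values for the remaining members were lower than for Dnmt1, at 0.920 for Asxl1 with Ipmk, 0.892 for Tet3 with Zc3hav1 and 0.860 for Tet1 with Zfp704. Further genes were Zfp963 (0.871) and Mon1a (0.867) for Asxl1, Trpm7 (0.853) and Acap3 (0.841) for Tet3, Rassf5 (0.832) and Yod1 (0.819) for Tet1, and Herc1 (0.819) and Lgals3 (0.805) for Tet2.

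Partners of the methyltransferases were described with a list of 30 genes of DNA methylation, without the members. Of 26 tested in vehicle libraries, 6 were lower and 1 higher in old mice, and in dmPGE2 libraries 6 were lower and 0 higher, with list medians of -0.07 and -0.11. Among all genes tested, 8.86% were lower and 8.47% higher in vehicle libraries, and 6.41% lower and 7.85% higher in dmPGE2 libraries. Within date 2 the counts in vehicle libraries were 3 lower and 1 higher, and within date 1 they were 3 lower and 0 higher, where 3.24% of all genes were lower on date 2 and 2.95% on date 1. Uhrf1, which brings Dnmt1 to newly replicated DNA, had the lowest log2 value of the list in both treatments. It had 107, 113, 129.4 and 159.5 CPM in old vehicle libraries, against 200.5, 202, 272 and 290.4 CPM in young vehicle libraries, with no overlap. The fall of Uhrf1 was 1.92-fold in vehicle libraries (log2 -0.94 ± 0.08, adjusted p = 4.78e-05, edgeR) and 1.94-fold in dmPGE2 libraries (log2 -0.96 ± 0.09).

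Other genes of this list were also called. Pcna, the sliding clamp that also binds Dnmt1, had a log2 difference of -0.68 ± 0.07 in vehicle and -0.55 ± 0.07 in dmPGE2 libraries. Hells, a remodeler needed for DNA methylation at repeats, had -0.69 ± 0.16 and -0.93 ± 0.12. Ahcy, which clears the by-product of methylation, had -0.41 ± 0.11 and -0.47 ± 0.13. Idh2, a mitochondrial dehydrogenase whose mutant form makes an inhibitor of Tet enzymes, had -0.46 ± 0.06 and -0.52 ± 0.09. Its relative Idh1 did not pass the test, at 0.05 ± 0.11 and 0.17 ± 0.11. Mbd3, a subunit of a deacetylase complex, was called in vehicle libraries (-0.26 ± 0.08). Ogt, a sugar transferase that binds Tet enzymes, was called higher in old mice in vehicle libraries (0.39 ± 0.08) and not in dmPGE2 libraries (0.19 ± 0.08, adjusted p = 0.148). Uhrf1, Pcna and Hells go with DNA replication, and the cell cycle markers that fell with them are given above.

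Around Ezh2 and Asxl1, a list of 32 genes of the Polycomb and Asxl-Bap1 complexes showed no common direction. Of 31 tested, 4 were lower and 2 higher in old mice in vehicle libraries, and 3 lower and 3 higher in dmPGE2 libraries, with list medians of 0.01 and -0.01. Of all genes tested, 17.3% were called in vehicle and 14.3% in dmPGE2 libraries, so these counts lie near the background and say nothing of the complexes as a whole. The core partners of Ezh2 were among those lower in old mice. Suz12 had a log2 difference of -0.45 ± 0.10 in vehicle libraries (adjusted p = 0.0121) and -0.24 ± 0.09 in dmPGE2 libraries (adjusted p = 0.116). Eed had -0.31 ± 0.10 (adjusted p = 0.0487) and -0.51 ± 0.08 (adjusted p = 0.00268). The histone binding subunits Rbbp4 (-0.31 ± 0.06, vehicle) and Rbbp7 (-0.29 ± 0.06 in vehicle and -0.31 ± 0.08 in dmPGE2 libraries) were called too.

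Ezh1, the second histone methyltransferase of the complex, moved against Ezh2. It had 191, 225, 159 and 174 CPM in old vehicle libraries, against 108, 103, 67.9 and 75.2 CPM in young vehicle libraries, with no overlap. It was 2.11-fold higher in old mice (log2 1.08 ± 0.09, adjusted p = 4.09e-05, edgeR) and 1.96-fold higher in dmPGE2 libraries (log2 0.97 ± 0.11). Per kb of exonic length, Ezh1 was above Ezh2 in 8 of 8 old libraries and in 2 of 8 young libraries. Each mouse counts here with its 2 libraries. The ratio of Ezh1 to Ezh2 was 1.51 to 3.50 in old and 0.449 to 1.22 in young libraries. The 2 young libraries above 1 were the dmPGE2 libraries of mice 477 and 478 of date 1, at 1.22 and 1.01. The vehicle libraries of these mice were at 0.980 and 0.897. On date 2 it was 1.51 to 2.88 in old and 0.449 to 0.633 in young libraries, and on date 1 it was 2.14 to 3.50 in old and 0.897 to 1.22 in young libraries. Ezh1 was also 1.36-fold lower on date 2 than on date 1 (log2 -0.44 ± 0.09, adjusted p = 0.00777). Cbx7, a reader subunit of Polycomb repressive complex 1, was higher in old mice too, at 0.56 ± 0.14 and 0.63 ± 0.11, as was Phf1, an accessory subunit, in dmPGE2 libraries (0.58 ± 0.15). In dmPGE2 libraries Hcfc1, which binds Bap1, was lower in old mice (-0.28 ± 0.07). Bap1, Asxl2 and the histone demethylase Kdm6a did not pass the test, with log2 differences of 0.10, 0.26 and 0.21 in vehicle libraries.

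**Figure D4:**
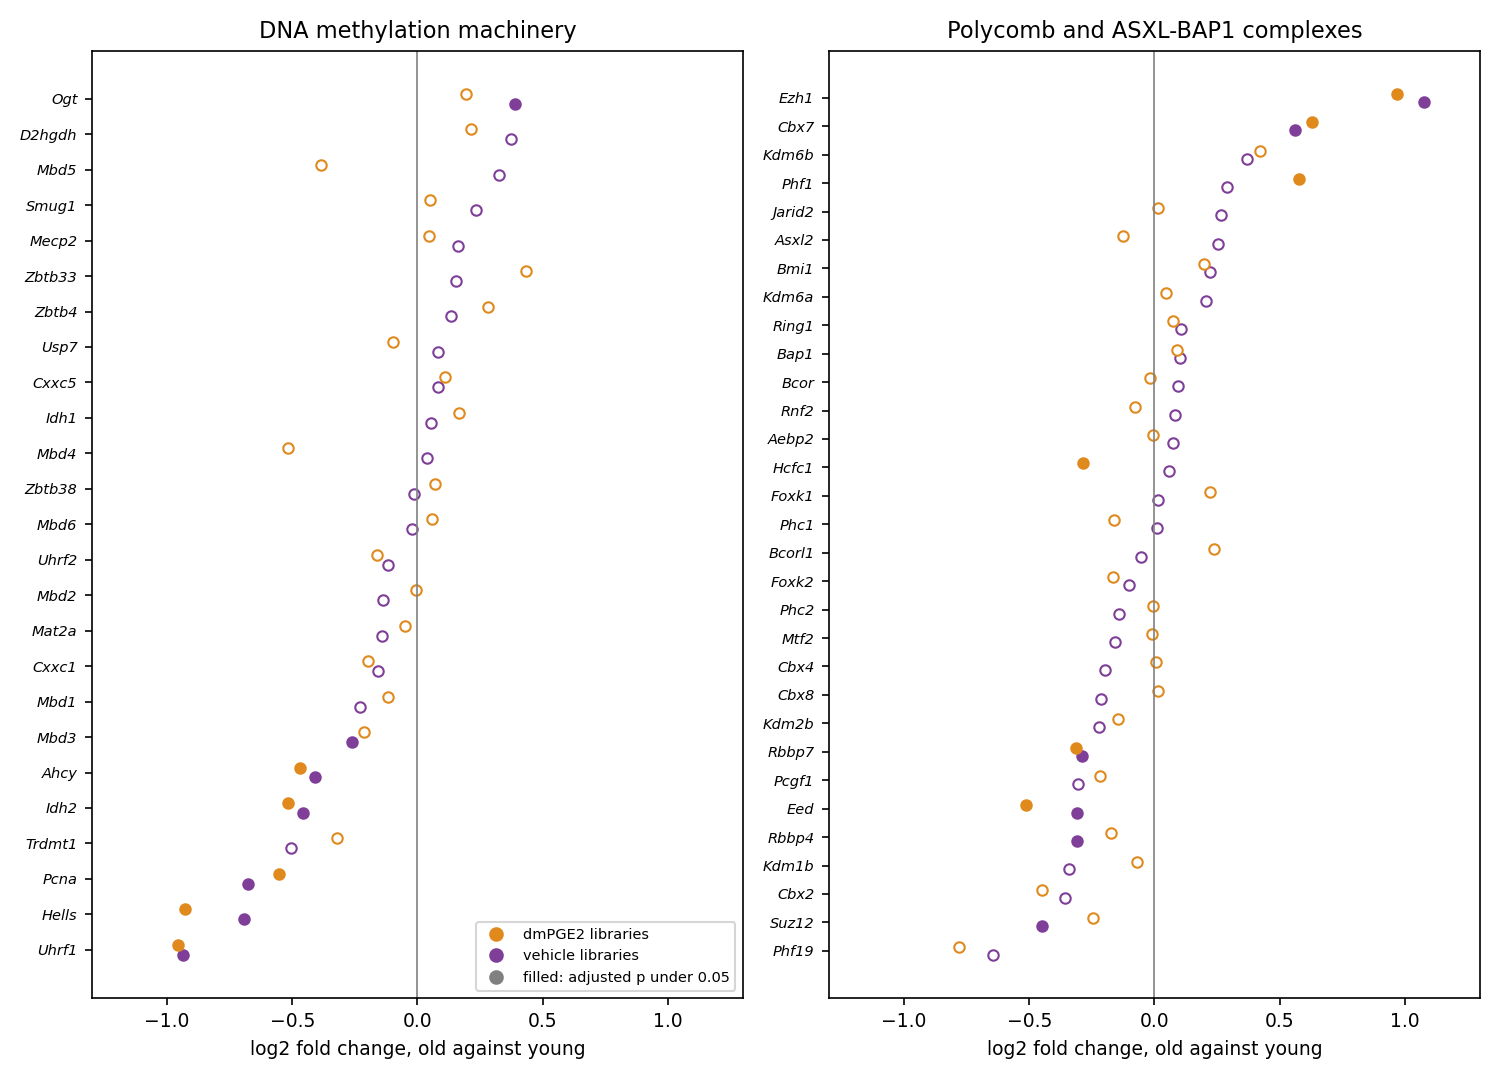
Log2 fold change of old against young libraries (x axis) for tested genes of the DNA methylation list (left, 1 gene not shown) and of the Polycomb and Asxl-Bap1 list (right), ordered by its value in vehicle libraries; orange is dmPGE2 libraries, purple vehicle libraries, and filled points have an adjusted p under 0.05. Uhrf1 lies lowest on the left at -0.96 in dmPGE2 and -0.94 in vehicle libraries, and Ezh1 highest on the right at 0.97 in dmPGE2 and 1.08 in vehicle libraries.

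Of 34 other genes mutated in clonal hematopoiesis, 6 were lower and 0 higher in old mice in vehicle libraries, and 3 lower and 0 higher in dmPGE2 libraries, with list medians of -0.07 and -0.09. Of all genes tested, 17.3% were called in vehicle libraries, 8.86% lower and 8.47% higher. In dmPGE2 libraries 14.3% were called, 6.41% lower and 7.85% higher. Whether the list departs from these shares was not tested. Suz12, described with the Polycomb genes, is also counted among the 6. The splicing factor Srsf2 had a log2 difference of -0.51 ± 0.07 in vehicle libraries and -0.28 ± 0.07 in dmPGE2 libraries. Cux1, a homeodomain transcription factor, had -0.43 ± 0.08 and -0.34 ± 0.05. Smc3, a cohesin subunit, was called in vehicle libraries (-0.43 ± 0.07) and Setdb1, a histone methyltransferase, in dmPGE2 libraries (-0.35 ± 0.08). Trp53, the tumour suppressor, did not pass the test, at -0.19 ± 0.06 in vehicle libraries (adjusted p = 0.0523), nor did the kinase Jak2, at 0.25 ± 0.10 (adjusted p = 0.113), or the phosphatase Ppm1d, at -0.15 ± 0.13 (adjusted p = 0.476).

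The response to dmPGE2 was tested over all 16 libraries with mouse as a block. None of the 8 members passed the test over all mice, against 0.61% of 13942 genes (edgeR), and 1 of the 8 had an unadjusted p under 0.05. That member was Tet1, with a log2 difference of 0.23 ± 0.08 (adjusted p = 0.233, and 0.173 to 0.631 under the alternatives tried). Its level was higher after dmPGE2 in 7 of 8 mice, and the share of all genes with such a count was not computed. The other members lay between -0.04 ± 0.06 for Asxl1 and 0.06 ± 0.07 for Dnmt3a. For Dnmt1, with 0.03 ± 0.04, the 95% interval of -0.05 to 0.11 is the narrowest of the 8. For Tet2, with -0.01 ± 0.15, it was -0.33 to 0.32.

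In old mice, Tet1 was measured at 47.4, 47.03, 63.4 and 38.4 CPM after dmPGE2, against 44.2, 46.99, 51.6 and 43.03 CPM after vehicle. In young mice it was measured at 66.0, 71.2, 57.7 and 46.8 CPM after dmPGE2, against 55.3, 44.5, 48.2 and 37.1 CPM after vehicle. Each young mouse had more Tet1 RNA after dmPGE2 than after vehicle, as did 3 of 4 old mice. The log2 difference was 0.07 ± 0.11 in old mice and 0.38 ± 0.11 in young mice (adjusted p = 0.945 and 0.214, edgeR), and its difference between the ages was -0.32 ± 0.15 (adjusted p = 0.740). Dnmt1, Dnmt3b and Tet3 were also higher after dmPGE2 in 4 of 4 young mice. Their log2 differences of 0.09 ± 0.05, 0.17 ± 0.10 and 0.22 ± 0.15 did not pass the test. The share of all genes that rose in 4 of 4 young mice was not computed, so these counts are descriptions alone. In old mice Dnmt3b had -0.19 ± 0.10 and was higher in 1 of 4, and its difference between the ages was -0.36 ± 0.14 (adjusted p = 0.696).

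The responses in old mice and in young mice and their difference were taken from the fit of all 16 libraries. In these comparisons 0 of 8 members and 0% of all genes were called by edgeR. At an unadjusted p under 0.05 there were 1096, 1785 and 955 genes, and DESeq2 called 114, 269 and 14 genes but 0 members. The gene counts depended on the terms of the edgeR fit. With terms for each age and date it called 210, 257 and 1 genes, and with the young libraries alone 25 genes, again with 0 members. Within dates, 0 members were called, against 0.387% of all genes on date 2 and 2.93% of them on date 1. The difference of the response between dates was called for 1.08% of all genes and 0 members. The members with the widest differences between the dates were Tet3, at -0.44 ± 0.15 (adjusted p = 0.353), and Dnmt3b, at 0.32 ± 0.11 (adjusted p = 0.321).

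Of the partner genes, 26 of the DNA methylation list and 31 of the Polycomb and Asxl-Bap1 list were tested. Of these, 3 passed the test over all mice, as did 0.61% of all genes tested. Each of the 3 moved the same way in 8 of 8 mice. They were picked by this same test and the share of all genes with such a count was not computed, so it is a description alone. Kdm6b, a demethylase that removes the mark set by Ezh2, was measured at 27.5, 21.3, 26.1 and 17.9 CPM after dmPGE2 in old mice, against 10.04, 9.40, 18.4 and 15.6 CPM after vehicle. In young mice it was measured at 16.5, 15.5, 20.2 and 16.9 CPM after dmPGE2, against 8.39, 6.19, 13.2 and 13.1 CPM after vehicle. The rise of Kdm6b was 1.77-fold (log2 0.83 ± 0.16, adjusted p = 0.0433, edgeR). Mat2a, which makes the methyl donor S-adenosylmethionine, rose by 0.32 ± 0.06 on the log2 scale (adjusted p = 0.0359), with means of 590.4 and 607 CPM after dmPGE2 in old and young mice, against 464 and 501 CPM after vehicle. Ogt fell 1.17-fold (log2 -0.23 ± 0.05, adjusted p = 0.0433). On date 2 none of these 3 was called, with log2 differences of 0.42 ± 0.16 for Kdm6b, 0.16 ± 0.05 for Mat2a and -0.22 ± 0.06 for Ogt. On date 1 they were 1.24 ± 0.17 for Kdm6b and 0.48 ± 0.05 for Mat2a, both called, and -0.24 ± 0.06 for Ogt (adjusted p = 0.0738). The difference between dates was not called for any of them, with adjusted p = 0.214 for Kdm6b, 0.0576 for Mat2a and 0.985 for Ogt. The number of all genes called over all mice, 85, was 0, 2, 1 and 5 without mouse 477, 478, 479 and 480 of date 1, and 55, 83, 166 and 119 without mouse 483, 484, 485 and 486 of date 2, so that without mouse 477 none of the 3 was called. None of the 34 other clonal hematopoiesis genes passed the test over all mice.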

How the data were processed

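The deposited table held raw read counts per gene, made by the authors from aligned reads, for 16 libraries of 8 mice, with 14829 genes and 2504 empty lines. Per the submitters' processing notes, STAR 2.5.2b, featureCounts, Subread 1.5.1 and build mm10 were used, without roles. The annotation and the strand setting of the counting are not given there. Per the labels' protocols, RNA was taken with the RNeasy Plus Mini Kit and libraries were made with Nextera XT. Every gene exceeded 0.5 CPM in at least 2 libraries, so genes with fewer counts had been removed. Columns were matched to samples by name, and 0 were left unmatched. The table also gives each gene's exonic length, which was used for levels per kb.

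Levels are CPM (counts per 1000000 counts of the library) scaled by TMM over all libraries. Genes were tested with edgeR 4.0.16 in R 4.3.3 (filterByExpr by group, TMM, robust quasi-likelihood), with a call where p, adjusted by Benjamini-Hochberg over all genes tested, was under 0.05. Age was tested in 8 libraries per treatment with a term for date, and dmPGE2 in 16 libraries with mouse as block. The pairing comes from the labels. After removal of group means, the 2 libraries of a mouse correlated at 0.510 to 0.732. SE was taken from the fold change and the F statistic, as |log2 fold change| / sqrt(F), and errors of CPM are SD. Alternatives were DESeq2 1.42.0, limma-voom (limma 3.58.1), median-of-ratios scaling, no filter, not robust, other terms and leaving out each mouse. Values within a date were added after the data were seen. Scripts were tested on simulated data.

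The members and the gene lists were chosen with earlier results of these data known. Named genes were the members, 13 fixed partners (Tdg was not analysed here), up to 4 called genes of a list by smallest p, the 3 genes most like each member among those with a mean log2 CPM of at least 2 (prior count 2), and marker sums with their 3 most abundant genes. Called genes of the partner lists beyond this rule, Hells, Mbd3 and Cbx7 in vehicle libraries, Phf1 and Rbbp7 in dmPGE2 libraries and Ahcy in both, were named after their values were seen. A few genes that the rule would name are not reported here.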

Additional observations from a re-analysis of the deposited data

Results flagged for a closer look

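Of 32 groups of 4 libraries (8 members in 4 groups), 1 held a library that stood apart from the other 3 by Dixon's ratio, the gap to the nearest library over the range of the group. Chance flags about 1 in 20 such groups. It was the young dmPGE2 library with the lowest Asxl1, at 88.5 CPM, against 104, 107 and 106 CPM in the other young dmPGE2 libraries. Its ratio was 0.8375, above Dixon's 95% critical value for 4 values. The vehicle library of the same mouse was also the lowest of its group for Asxl1, at 88.5 CPM.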

How the results depend on the processing

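Across 13 comparisons, the 8 members gave 104 results and 1504 values under the alternatives. None of the values changed sign with a call on either side, 41 lost a call, 4 gained one, and 80 changed sign without a call. The number of members called was 3 for old against young in vehicle libraries and became 1 within date 2. In dmPGE2 libraries it was 4, and became 2 without the date term, 2 within date 1 and 2 within date 2. With each mouse left out in turn it ran from 2 to 3 in vehicle libraries, from 2 to 5 in dmPGE2 libraries, from 0 to 1 for date 2 against date 1, from 0 to 2 for age within date 1 and from 0 to 2 within date 2. It was 0 to 0 for age by date and for the 7 dmPGE2 comparisons. Without the replicate block, that is without the pairing by mouse, 0 members were called in all 7 dmPGE2 comparisons, as with it, and the count of all genes for dmPGE2 over all mice was 39 in place of 85. For that comparison DESeq2 called 447 genes, limma-voom 225, the fit that was not robust 144 and terms for each age and date 347. Terms for each age and date called 210 genes in old mice, 257 in young mice and 1 for the difference between the ages, and the young libraries alone 25, each in place of 0. For the response on date 2 the count of 54 became 131 with DESeq2 and 10 without the block. For the difference of the response between dates it was 241 with DESeq2 in place of 151. Without the date term, the gene counts of the age comparisons were 971 in place of 2318 in vehicle and 804 in place of 1894 in dmPGE2 libraries. Within date 2 and date 1 DESeq2 called 1622 and 1383 genes for age in vehicle libraries, in place of 1057 and 865. The cause of these differences was not tested. Dnmt3b in vehicle libraries also lost its call with no filter on low counts (adjusted p = 0.0527). Tet2 had the fewest counts among the members, with 302 to 853 per library.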
